A study of Mus musculus with 4 samples.

Results

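Cluster 2 is one of the 23 numbered clusters in the authors' table of single-nucleus RNA levels from mouse kidney cortex, and its members are the nuclei averaged in its 4 columns, 1 column per library. The table gives averages, so the nuclei were counted by arithmetic on its lowest values, which gave 2545 of 26144 nuclei. They numbered 753 of 5491 in Klf4 dEC Nos3 null, 459 of 7004 in Nos3 null, 516 of 6883 in Klf4 dEC and 817 of 6766 in the control. Clusters 4, with 2127 nuclei, and 19, with 252 nuclei, are the other clusters rich in Slc12a1 and serve as its comparison. All levels below are mean unique molecular identifiers (UMIs, each marking a captured RNA molecule) per 10000 UMIs of a nucleus.

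The thick ascending limb is the nephron segment that reabsorbs salt without water. Its apical cotransporter NKCC2, the product of Slc12a1 and the target of loop diuretics, takes up sodium, potassium and chloride; potassium recycles through the channel ROMK (Kcnj1), and chloride leaves on the blood side through channels that need the subunit barttin (Bsnd). The resulting lumen-positive voltage pulls sodium, calcium and magnesium between the cells, through claudin-10 pores in some cells and claudin-16 with claudin-19 pores in others. The segment runs from the outer medulla up to the macula densa, a plaque of sensor cells beside the glomerulus, and cells of its medullary and cortical stretches differ in these genes.

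The study compared kidney cortex of mice on C57BL/6J. The library labelled Klf4 dEC Nos3 null comes from mice with Klf4 deleted in endothelial cells and no Nos3 (Nos3-/-), Nos3 null from Nos3-/- mice, Klf4 dEC from mice with the endothelial deletion of Klf4 only, and the control from Klf4 flox/flox mice. Nos3 encodes the nitric oxide synthase of endothelium, and Klf4 a transcription factor of the Krüppel-like family. The sources used here do not give the Cre driver, the age and sex of the mice or the number of mice per library. Each genotype has 1 library, so no difference between libraries has a replicate check, and no p-value is given.

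In the endothelial-marked cluster 10 the levels of the targeted genes did not follow the labelled deletions, so each library is called by its label. Klf4 stood there at 0.824 in Klf4 dEC Nos3 null, 0.445 in Nos3 null, 0.779 in Klf4 dEC and 0.621 in the control, and Nos3 at 2.07, 1.52, 0.930 and 1.26 in the same libraries. Reads from an exon that was kept would check nothing, and the removed exons are not named in the labels. In cluster 2 itself both genes were near 0: Klf4 ranged from 0.0102 to 0.0658, and Nos3 was listed at 0 in all libraries but the control, at 0.00243. The Nos3 null library was the shallowest, with a median of 1794 UMIs per cluster 2 nucleus, against 3490 in Klf4 dEC Nos3 null, 2443.5 in Klf4 dEC and 3489 in the control.

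Cluster 2 made up a smaller share of nuclei in the Nos3 null and Klf4 dEC libraries than in the other libraries. Of the nuclei in clusters 2, 4 and 19, it held 55.0% (52.4 to 57.7, exact 95% binomial interval) in Klf4 dEC Nos3 null, 43.8% (40.7 to 46.8) in Nos3 null, 48.9% (45.8 to 51.9) in Klf4 dEC and 56.3% (53.7 to 58.9) in the control. Of all nuclei it held 13.7%, 6.55%, 7.50% and 12.1% in the same libraries. The intervals cover counting error only, and dissection and genotype cannot be told apart with 1 library per genotype.

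**Figure D1:**
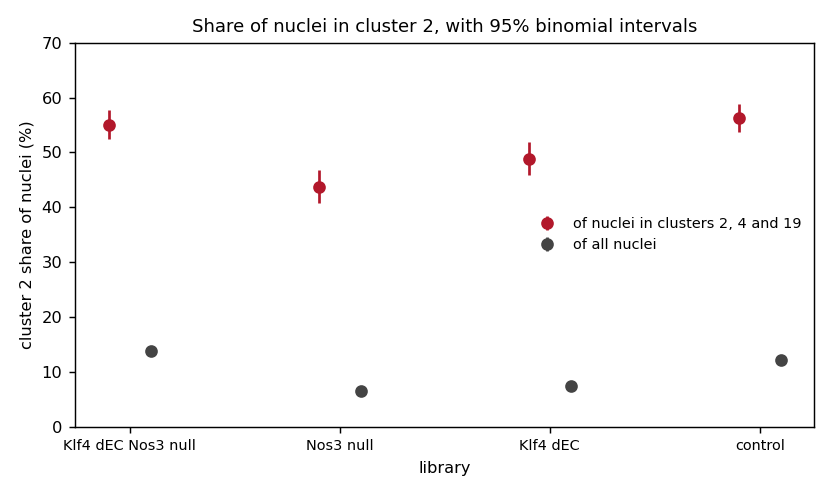
Share of nuclei assigned to cluster 2 (y axis, %) in each library (x axis), of the nuclei in clusters 2, 4 and 19 (red) and of all nuclei (grey), with exact 95% binomial intervals. The Nos3 null library has the lowest share by both measures, 43.8% and 6.55%.

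The 5 genes that mark the cluster were all highest there among the 23 clusters by the mean of the libraries, and the label of thick ascending limb held. Slc12a1 stood at 199 in Klf4 dEC Nos3 null, 115 in Nos3 null, 225 in Klf4 dEC and 225 in the control. Of these 5 genes, Slc12a1 was shared with both clusters 4 and 19, at means of 183 and 153, against 191 in cluster 2. Ptger3, Pcsk6 and Tmem207 were also present in cluster 4, at means of 9.74, 4.84 and 2.95, against 12.3, 7.37 and 4.94 in cluster 2. Since the nuclei were clustered on their expression, these levels describe the cluster and are no test.

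Sgcz, which encodes zeta-sarcoglycan of a membrane complex best known in muscle, had the highest ratio to cluster 4 of the 5 marker genes, a mean log2 ratio of 2.35. It stood at 22.7 in Klf4 dEC Nos3 null, 17 in Nos3 null, 49.96 in Klf4 dEC and 58.0 in the control, against 5.90, 3.18, 6.42 and 13.1 in cluster 4 and 1.71, 1.92, 2.88 and 3.27 in cluster 19. The lowest library of cluster 2 was above the highest of cluster 4. The spread among libraries was wide within both clusters, with the control highest in each.

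Ptger3, the prostaglandin E2 receptor EP3, through which prostaglandin E2 restrains salt uptake in this segment, stood at 12, 10.3, 17.4 and 9.37 in cluster 2 in Klf4 dEC Nos3 null, Nos3 null, Klf4 dEC and the control. Cluster 4 had 13.2, 8.56, 9.96 and 7.24 in the same libraries, so Ptger3 was higher in cluster 4 in 1 library, and cluster 19 had 0.684 to 2.30. Pcsk6, a proprotein convertase that cleaves secreted precursors, stood at 8.02, 8.52, 3.99 and 8.95 in cluster 2, against 5.48, 4.14, 5.00 and 4.73 in cluster 4. Its ranges in these clusters overlapped because of the Klf4 dEC library, while in cluster 19 it was at 0.0322 to 0.244. Tmem207, a small transmembrane protein, stood at 4.91, 2.39, 7.79 and 4.68 in cluster 2, against 3.69, 1.82, 3.64 and 2.67 in cluster 4 and 0.776 to 1.07 in cluster 19. Within each library it was higher in cluster 2 than in cluster 4, though the ranges over libraries overlapped.

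Tmem207 lies beside Cldn16, which encodes claudin-16, the magnesium and calcium pore protein, with 21027 bases and 0 annotated genes between their ends on chromosome 16. By the mean, Tmem207 was highest and Cldn16 lowest in cluster 2 of the 3 clusters. Cldn16 stood at 0.123, 0.197, 0.163 and 0.0955 in cluster 2, against 0.913, 0.498, 0.745 and 0.533 in cluster 4 and 2.36, 0.957, 1.41 and 1.55 in cluster 19. Cldn16 lies on the plus strand from 26463135 to 26482765 and Tmem207 on the minus strand from 26503793 to 26526771, so they face each other tail to tail.

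The promoters of this pair and of Slc12a1 are shown because Tmem207 is a marker of cluster 2, its neighbour Cldn16 is low there, and Slc12a1 is common to all 3 clusters. They are the 250 bases before and 50 after the annotated start in RefSeq on GRCm38.p6, read 5′ to 3′ on the gene's strand, at chr16:26526722-26527021 (minus), chr16:26462885-26463184 (plus) and chr2:125152350-125152649 (plus). Capitals mark matches, on either strand, to AAGGTCA (bound by estrogen-related receptors, such as the Esrrb product), GTTAAT (an HNF1 half-site) and GCCNNNGGC (bound by TFAP2 factors); matches of different motifs did not overlap.
Tmem207: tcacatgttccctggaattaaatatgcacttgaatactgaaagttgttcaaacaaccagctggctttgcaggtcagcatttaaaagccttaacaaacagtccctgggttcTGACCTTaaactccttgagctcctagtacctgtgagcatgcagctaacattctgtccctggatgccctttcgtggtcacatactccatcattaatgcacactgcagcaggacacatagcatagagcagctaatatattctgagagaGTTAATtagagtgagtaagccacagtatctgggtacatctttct
Cldn16: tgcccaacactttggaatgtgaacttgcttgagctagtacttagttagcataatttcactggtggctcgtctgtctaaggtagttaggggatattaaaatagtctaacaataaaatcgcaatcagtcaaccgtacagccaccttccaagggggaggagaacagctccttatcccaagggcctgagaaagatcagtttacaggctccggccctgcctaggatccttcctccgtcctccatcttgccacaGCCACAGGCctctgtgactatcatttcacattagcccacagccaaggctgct
Slc12a1: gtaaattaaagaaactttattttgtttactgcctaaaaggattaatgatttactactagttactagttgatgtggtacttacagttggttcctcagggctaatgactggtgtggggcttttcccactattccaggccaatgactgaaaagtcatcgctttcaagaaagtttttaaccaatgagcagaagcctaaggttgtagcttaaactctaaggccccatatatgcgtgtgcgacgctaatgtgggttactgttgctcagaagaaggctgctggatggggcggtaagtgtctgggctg
The Tmem207 window held 1 match to AAGGTCA, written here as its reverse complement, and 1 to GTTAAT, and the Cldn16 window held 1 match to GCCNNNGGC. The Slc12a1 window held none of them. Of 32851 promoters in the RefSeq table, 4.72% held AAGGTCA, 7.10% GTTAAT and 16.6% GCCNNNGGC, so a match is a description of the letters and shows no binding.

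Against cluster 4, few genes separated cluster 2 in every library. Genes were counted where the log2 ratio, with 0.1 added to both levels, reached 1 or -1 in all 4 libraries and the higher cluster averaged at least 0.5. By that rule 10 of 3963 genes were higher in cluster 2 (0.252%) and 39 were lower (0.984%). Leaving out the shallow Nos3 null library gave 18 higher and 63 lower.

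The 10 higher genes were led by Rgs7, a regulator that shortens G protein signals. It stood at 2.24, 1.11, 1.62 and 3.94 in cluster 2 in Klf4 dEC Nos3 null, Nos3 null, Klf4 dEC and the control, against 0.0584, 0.0295, 0.0142 and 0.0859 in cluster 4. Its mean log2 ratio was 3.86, and the libraries of the 2 clusters did not overlap. Filip1l, which encodes a filamin-interacting protein, stood at 5.09, 3.77, 6.00 and 5.85 in cluster 2, against 1.69, 0.734, 1.82 and 1.58 in cluster 4, a mean log2 ratio of 1.81.

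Scel (sciellin, a protein of cornified envelopes, mean log2 ratio 2.35), Lama1 (a laminin chain of basement membranes, 1.96), Ano4 (an anoctamin, 1.45) and Ank2 (ankyrin-B, a membrane anchor, 1.36) were also higher. So were Gpc5 (the heparan sulphate proteoglycan glypican-5, 1.59) and Prox1 (the homeobox factor known for specifying lymphatic endothelium, 1.42). The list closes with Sgcz at 2.35 and Ranbp3l, a Ran-binding protein, at 1.95. Ranbp3l ranged from 1.40 in Klf4 dEC Nos3 null to 3.24 in Klf4 dEC, the widest gap between libraries among the 10 genes.

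The lower genes were led by Enox1, a cell-surface oxidoreductase, and Thsd4, an extracellular matrix protein. Enox1 stood at 0.0189, 0.218, 0.0359 and 0.0345 in cluster 2, against 3.55, 5.40, 8.25 and 3.99 in cluster 4, and Thsd4 at 0.0294, 0.283, 0.0497 and 0.0167, against 3.04, 5.73, 6.51 and 3.47. Both were near 0 in cluster 2 outside the Nos3 null library. That library also held more transcripts of other segments, and their part in the levels of Enox1 and Thsd4 was not tested. The 8 lower genes that follow had mean log2 ratios of -3.19 to -2.29. They were Cdh6 (cadherin-6), Rtl4, Col5a2 (a collagen V chain), Cntn5 (a contactin), Flvcr1 (a heme and choline transporter), Susd4 (a complement regulator), Slc5a1 (the sodium-glucose cotransporter SGLT1) and Sfrp1 (a secreted Wnt antagonist).

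**Figure D2:**
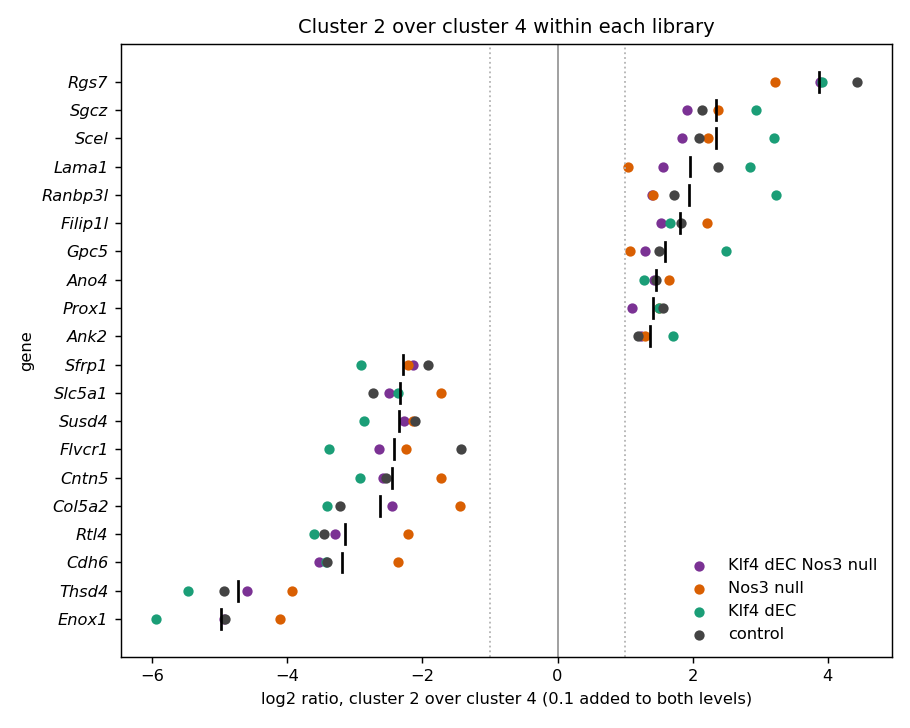
Log2 ratio of cluster 2 over cluster 4 (x axis, 0.1 added to both levels) for the 10 highest and 10 lowest genes by mean (y axis), 1 point per library in its colour, with the mean as a black bar and dotted lines at 1 and -1. Ranbp3l lies at 3.24 in the Klf4 dEC library and at 1.40 to 1.73 in the others.

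Some genes of divalent cation handling were low in cluster 2 against both neighbours, among them Egf and Casr. Egf, the epidermal growth factor precursor, which acts on magnesium transport, stood at 41.3, 43.5, 37.0 and 53.1 in cluster 2, against 113, 88.2, 158 and 151 in cluster 4 and 146, 108, 154 and 178 in cluster 19. Casr, the calcium-sensing receptor, stood at 1.08, 1.90, 1.90 and 2.25 in cluster 2, against 4.47, 5.92, 7.83 and 7.22 in cluster 4 and 7.28, 6.93, 8.68 and 9.93 in cluster 19. For both genes no library of cluster 2 reached the lowest of cluster 4.

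Of the 14 genes of tight junctions and divalent cations that passed the level floor against cluster 4, 4 were lower in all libraries and 0 were higher. The lower genes were Cldn16, Casr, Egf and Pth1r (the parathyroid hormone receptor, mean log2 ratio -1.24). The shares over all genes were 0.984% lower and 0.252% higher. The list median was -0.41, against 0.01 over all genes. Against cluster 19, where 3.68% of all genes were lower and 2.20% higher, 5 of 16 were lower, with Vdr, the vitamin D receptor, added at a mean log2 ratio of -2.03. In the other direction Cldn10 and Tmem207 were higher, at 2.05 and 2.14. Cldn10, which encodes claudin-10, stood at 2.46, 2.92, 4.56 and 3.06 in cluster 2, against 0.756, 0.741, 0.831 and 0.474 in cluster 19; its gene total cannot tell apart the isoforms, which start from different promoters and form different pores.

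Of 19 hormone receptor and signalling genes past the floor, 0 were higher and 3 were lower than in cluster 4 in all libraries (Casr, Pth1r and Gcgr), with a median log2 ratio of -0.17. The shares over all genes in that comparison were 0.252% higher and 0.984% lower. Gcgr, the glucagon receptor, stood at 0.671, 0.48, 0.441 and 0.418 in cluster 2, against 1.59, 1.24, 1.68 and 1.72 in cluster 4, and the clusters did not overlap. Against cluster 19, 2 of 18 were lower (Casr and Pth1r) and 1, Ptger3, was higher, beside the 3.68% and 2.20% over all genes. Pth1r stood at 0.417, 1.09, 0.536 and 0.377 in cluster 2, against 5.13, 6.84, 3.58 and 4.5 in cluster 19, with the Nos3 null library highest in both. Avpr2, the vasopressin receptor, was at most 0.0864 in cluster 2, under the floor.

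The transport machinery itself was largely shared. Of 19 salt transport genes past the floor, 0 were higher and 2 were lower than in cluster 4 in all libraries, and the median log2 ratio was 0.07. The shares over all genes were 0.252% higher and 0.984% lower. One of the lower genes was Slc9a2, a sodium-proton exchanger, at a mean log2 ratio of -1.34.

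Kcnj1, the ROMK channel, stood at 5.26, 5.6, 6.78 and 3.22 in cluster 2, against 5.37, 5.97, 5.08 and 3.45 in cluster 4. These ranges lay on top of each other. Kcnt1, a sodium-activated potassium channel, stood at 3.75, 4.31, 2.47 and 2.75 in cluster 2, against 2.75, 1.53, 1.87 and 2.42 in cluster 4 and at most 0.329 in cluster 19. Of the regulators of the cotransporter, 0 of 16 differed from cluster 4 by the rule. Few of all genes did (0.252% higher and 0.984% lower), so this count says little about these regulators. Against cluster 19, where 3.68% of all genes were lower and 2.20% higher, the exception was Wnk1. This kinase gene behind a familial hypertension was lower, at a mean log2 ratio of -3.30.

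Umod, which encodes uromodulin, the main protein of normal urine, stood at 18.5, 5.57, 10.7 and 11 in cluster 2, against 36.7, 13.4, 34.6 and 24.6 in cluster 4. It was lower in cluster 2 in each library, but the ratio of -0.99 in Klf4 dEC Nos3 null fell just short of the limit, so it is not among the 39 lower genes.

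Against cluster 19 the differences were wider: 92 of 4190 genes were higher in cluster 2 in all libraries (2.20%) and 154 were lower (3.68%). Cluster 19 columns rest on 54 to 68 nuclei, so its levels are the least precise, and a level of 3 UMIs there is 0.137 to 0.230. Cacnb4, a calcium channel subunit gene, stood at 51.7, 40.4, 32.8 and 42.4 in cluster 2, against 3.39, 2.73, 2.78 and 2.95 in cluster 19, while cluster 4 had 24.6 to 35.9. Pcsk6, Ano4, Kcnt1, Scel, Rgs7, Sgcz, Filip1l, Elfn1 and Lama1 complete the highest genes, with mean log2 ratios of 3.39 to 5.17.

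The genes lower than in cluster 19 included markers of the macula densa. Nos1, the neuronal nitric oxide synthase of those cells, stood at 0.0115, 0, 0.0203 and 0.00644 in cluster 2, against 3.18, 3.13, 1.96 and 1.52 in cluster 19. Pappa2, a protease of macula densa cells, was at most 0.0185 in cluster 2, against 0.510 to 1.84 in cluster 19. Of 7 macula densa genes past the floor, 4 were lower in all libraries (Nos1, Pappa2, Robo2 and Pde10a) and 1, Ptger3, was higher. The shares over all genes were 3.68% lower and 2.20% higher. The neurexin gene Nrxn3 stood at 0.204, 0.475, 0.0801 and 0.0942 in cluster 2, against 43.4, 38.1, 57.0 and 44.2 in cluster 19, and Tshr, the thyrotropin receptor, at 0.0384, 0.107, 0.0482 and 0.0389, against 3.26, 2.57, 3.97 and 4.35. Enox1, Thsd4, Col5a2, Sfrp1 and Cntn5, low against cluster 4, were also among the 10 lowest against cluster 19.

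**Figure D3:**
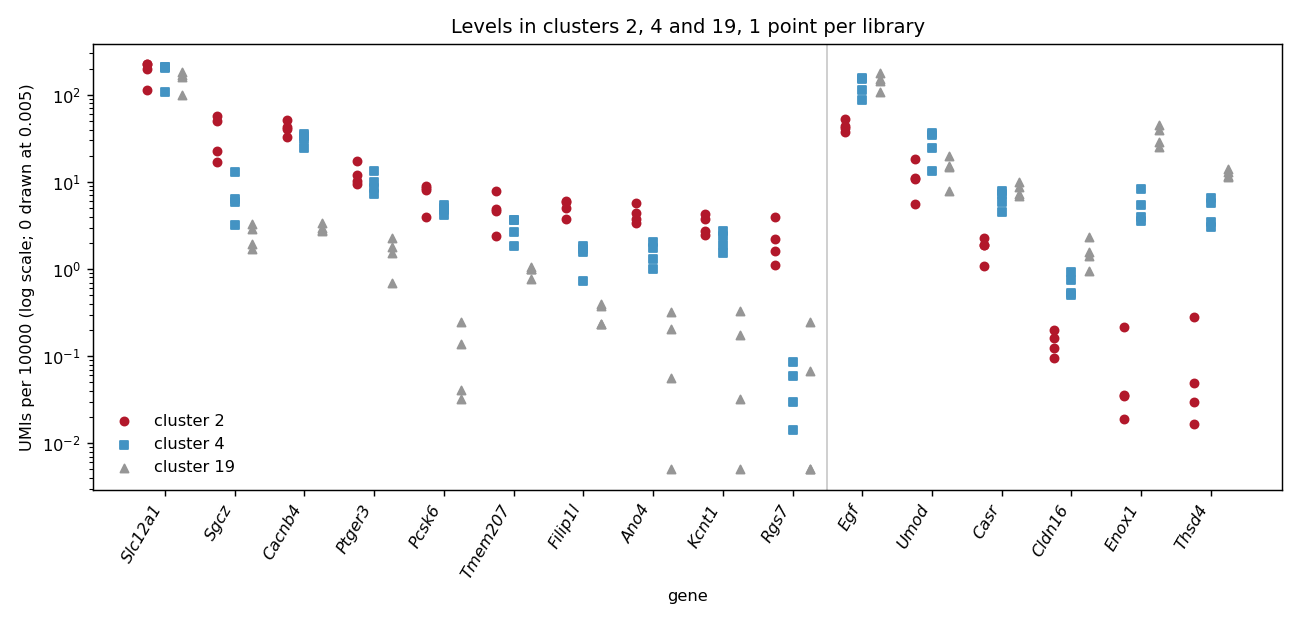
Levels (y axis, UMIs per 10000, log scale, 0 drawn at 0.005) of 10 genes that mark cluster 2 or its segment (left of the line) and 6 genes lower in it (right), with 1 point per library for clusters 2 (red circles), 4 (blue squares) and 19 (grey triangles). Rgs7 is between 1.11 and 3.94 in cluster 2 and at most 0.0859 in cluster 4.

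Few genes were particular to cluster 2 among all clusters by level. Of 3725 genes at 0.5 or more, 313 (8.40%) were highest in cluster 2 and 6 were at 2 or more times the highest of the other 22 clusters. The 10 genes with the largest multiples included Sgcz, Rgs7, Filip1l, Ano4, Elfn1, AC144408.3, Dnah11, Scin and Gm17276. Scin, which encodes the actin-severing scinderin, stood at 4.28, 3.67, 6.08 and 3.93, against a mean of 2.34 in cluster 4, the next highest.

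Among transcription factors past the floor, 0 of 24 differed from cluster 4 by the rule, with a median log2 ratio of 0.16. This count is near the shares over all genes, 0.252% higher and 0.984% lower. Esrrb, an orphan nuclear receptor, stood at 9.33, 13, 20.3 and 12 in cluster 2, against 8.86, 10.6, 14 and 9.85 in cluster 4 and 2.98, 2.97, 2.99 and 2.78 in cluster 19. Ppargc1a, the mitochondrial coactivator PGC-1alpha, stood at 20.6, 14.7, 31.1 and 27.6, against 15.3, 10.3, 19.7 and 22 in cluster 4 and 7.22, 8.41, 8.77 and 15 in cluster 19. Both were higher in cluster 2 in every library, short of the limit against cluster 4. Against cluster 19, 2 of 23 past the floor were higher, Esrrb and the bHLH-PAS factor gene Sim2 (mean log2 ratio 2.76). In the same comparison 1, Tfcp2l1, was lower (-1.72). Over all genes 2.20% were higher and 3.68% were lower. Of 25 oxidative metabolism genes past the floor against cluster 19, 2 were higher by the rule and 0 were lower, beside the same shares over all genes. The higher genes were Ckb (brain-type creatine kinase, 1.94) and Hk1 (hexokinase 1, 1.38). The median was 0.42, against 0.06 over all genes. Against cluster 4, 0 of 26 oxidative metabolism genes past the floor were higher or lower, with a median of 0.06, against 0.01 over all genes.

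Markers of most other cells were low in cluster 2, and several lists were highest in the Nos3 null library. The 13 endothelial markers summed to 0.637, 2.07, 0.945 and 0.792 in Klf4 dEC Nos3 null, Nos3 null, Klf4 dEC and the control, with 10 of 13 averaging under 0.1. The 10 stromal markers summed to 0.484 to 0.618, the 12 macrophage and lymphocyte markers to 0.882 to 1.41, and the 9 intercalated cell markers to 0.382, 1.84, 0.429 and 0.404. The 7 distal convoluted tubule markers summed to 6.41, 13.3, 8.56 and 6.28, and the 12 connecting tubule and principal cell markers to 7.52, 21.9, 9.67 and 6.47. The 9 podocyte markers summed to 15.8 to 24.0, with 6 of 9 averaging under 0.1; nearly all of it was Magi2, a scaffold protein gene, at 20.1, 22.7, 15.4 and 21.9. Injury genes were low too, with the 16 summing to 6.59 to 8.91, and Havcr1, the KIM-1 injury marker, listed at 0 in all 4 libraries.

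The Nos3 null library differed most from the control in cluster 2. Genes entered a comparison between libraries where the higher library reached 0.5, and were counted where the log2 ratio reached 1 or -1. Of 4136 genes, 311 were higher in Nos3 null than in the control (7.52%) and 129 were lower (3.12%). They included 11 proximal tubule markers. Fut9, a fucosyltransferase gene of the proximal tubule, stood at 26.5 in Nos3 null, against 3.61 in the control, and Lrp2, its endocytic receptor megalin, at 9.77 against 1.54.

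Fut9 and Lrp2 had ratios of like size in the other thick ascending limb clusters. The log2 ratio of Fut9 was 2.84 in cluster 2, 2.77 in cluster 4 and 2.69 in cluster 19, and that of Lrp2 was 2.58, 2.58 and 2.22. Of 12 proximal tubule markers past the floor, 11 were higher and 0 lower in Nos3 null, with a median log2 ratio of 1.73, and the 14 markers together summed to 80.1 in Nos3 null, against 14 in Klf4 dEC Nos3 null, 21.7 in Klf4 dEC and 19.1 in the control. Slc8a1, the sodium-calcium exchanger gene of the connecting tubule, stood at 15 against 1.85 in the control, and at a mean of 636 in cluster 11. The 13 mitochondrially encoded transcripts, made outside the nucleus, summed to 28.9 in Nos3 null, against 61.7 in Klf4 dEC Nos3 null, 66.4 in Klf4 dEC and 62.0 in the control.

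Of 17 thick ascending limb markers past the floor, 1, Sgcz, was lower in Nos3 null than in the control and 0 were higher, with a median log2 ratio of -0.07. All genes had a median of 0.05, with 3.12% lower and 7.52% higher. Slc12a1 stood at 115 against 225 in the control (log2 ratio -0.97, 95% counting interval -1.0 to -0.94), and Sgcz at 17 against 58.0 (-1.76, -1.85 to -1.69). Erbb4, a receptor tyrosine kinase gene, stood at 56.2 against 122 (-1.12), and Umod at 5.57 against 11 (-0.98). In clusters 4 and 19 the Slc12a1 ratio was -0.93 and -0.71. The part that the transcripts of other segments, the lower depth or the genotype had in these values was not tested. Counting intervals here and below are for the ratio without the 0.1 added and reflect counting alone, not variation among nuclei, mice or preparations.

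Klf4 dEC Nos3 null over Nos3 null, which differ by the Klf4 label, gave 174 of 4316 genes higher (4.03%) and 304 lower (7.04%). Fut9 stood at 2.20 in Klf4 dEC Nos3 null, against 26.5 in Nos3 null, and 11 of 12 proximal tubule markers past the floor were lower and 0 higher, with a median log2 ratio of -2.10. This comparison and the one before share the Nos3 null library. Among segment genes, Umod was at 18.5 against 5.57 (1.71, 1.59 to 1.88) and Tmem207 at 4.91 against 2.39 (1.01, 0.82 to 1.27), and both ratios were of like size in cluster 4, at 1.45 and 0.98. Dnah11, an axonemal dynein gene, stood at 1.42 against 0.175. The 10 mitochondrially encoded genes past the floor had a median log2 ratio of 1.10, with 7 higher.

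The Klf4 dEC library differed from the control in cluster 2 in more genes than in cluster 4. Of 3934 genes, 86 were higher (2.19%) and 83 were lower (2.11%), 4.30% in all, while cluster 4 had 39 higher and 10 lower, 1.24% of 3940 genes. The cluster 4 columns rest on 476 nuclei in Klf4 dEC and 566 in the control, and those of cluster 2 on 516 and 817. Cluster 19, with few nuclei, had 10.0% past the limit, so these shares are not compared with it.

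Ranbp3l gave the largest difference. It stood at 59.8 in Klf4 dEC, against 6.92 in the control, 9.37 in Klf4 dEC Nos3 null and 6.13 in Nos3 null, a log2 ratio over the control of 3.09 (3.04 to 3.19). In cluster 4 it stood at 6.26 in Klf4 dEC, against 2.02 in the control (1.58), and the median ratio over the 20 clusters outside the segment was 0.68. Its level in the Klf4 dEC library was the highest of the 4 in cluster 2 and in cluster 4.

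Transcription factors of the nephron were among the other genes higher in Klf4 dEC than in the control. Sim1, a bHLH-PAS factor gene, stood at 21.9 in Klf4 dEC, against 8.03 in the control, 9.53 in Klf4 dEC Nos3 null and 5.12 in Nos3 null (log2 ratio over the control 1.44, 1.37 to 1.53). Pax2, a paired-box factor of kidney development, stood at 14.9 against 5.70 in the control (1.37, 1.29 to 1.49), and its relative Pax8 at 4.48 against 1.88 (1.21, 1.08 to 1.43). In cluster 4 the ratios were 0.48 for Sim1, 0.12 for Pax2 and 0.35 for Pax8. Of 24 transcription factors past the floor, these 3 were higher and 1, Zbtb16, was lower, beside 2.19% higher and 2.11% lower over all genes. In Klf4 dEC Nos3 null over Klf4 dEC, Sim1 and Pax2 were lower past the limit and Pax8 was not.

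Transport and defence genes followed. Slc9a3, the apical sodium-proton exchanger NHE3, stood at 16.4 in Klf4 dEC, against 7.41 in the control (1.14, 1.06 to 1.24), with 9.01 against 6.28 in cluster 4. Defb1, which encodes an antimicrobial defensin of tubules, stood at 14.1 against 3.74 (1.89, 1.81 to 2.03), with 6.18 against 2.58 in cluster 4. Nadk2, the mitochondrial NAD kinase gene, stood at 4.36 against 0.75 (2.39, 2.30 to 2.78), with 1.04 against 0.659 in cluster 4. For all 3 genes the Klf4 dEC library was the highest of the 4 in cluster 2, and for Nadk2 cluster 4 stayed low in every library.

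Cab39l, which encodes an activator of the kinases that phosphorylate NKCC2, stood at 4.77 against 1.62 in the control (1.5, 1.37 to 1.74), and Kcnj1 at 6.78 against 3.22 (1.05, 0.94 to 1.21). Also among the 8 highest were AC144408.3, Fyb2 (an adaptor protein gene), Rnd3 (a small GTPase gene), Spag5 (a mitotic spindle protein gene), 9130230L23Rik and Gm20395, with log2 ratios of 1.91 to 2.68. Of these, Fyb2, Rnd3, 9130230L23Rik and Gm20395 stood at 0.0658 to 0.204 in the control, so their ratios depend on the 0.1 added.

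On the lower side in Klf4 dEC, Slc43a2, an amino acid transporter gene, stood at 1.75 against 6.66 in the control (-1.86, -2.14 to -1.72), with 4.58 against 6.08 in cluster 4. Elovl6, a fatty acid elongase gene, stood at 0.429 against 1.91 (-1.92, -2.59 to -1.74). Ccbe1, a lymphatic growth regulator, Rarg, a retinoic acid receptor, Etnk2, an ethanolamine kinase, Rufy4, Peli2, a ubiquitin ligase, and Fkbp5 complete the 8 lowest, with log2 ratios of -2.32 to -1.55. The barttin gene Bsnd stood at 0.187 against 0.665 (-1.42, -2.53 to -1.20), where cluster 4 had 0.685 against 0.478, and Pcsk6 at 3.99 against 8.95 (-1.15, -1.31 to -1.02), where cluster 4 had 5.00 against 4.73. For Bsnd and Pcsk6 the Klf4 dEC library was the lowest of the 4 in cluster 2 but not in cluster 4.

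Klf4 dEC Nos3 null over Klf4 dEC, which differ by the Nos3 label, shares the Klf4 dEC library with the comparison above. Of 4054 genes, 52 were higher (1.28%) and 58 were lower (1.43%). Ranbp3l stood at 9.37 in Klf4 dEC Nos3 null, against 59.8 in Klf4 dEC (-2.66, -2.74 to -2.61), Defb1 at 2.37 against 14.1 (-2.53, -2.72 to -2.44), and Enpp2, the gene of the lysophospholipase autotaxin, at 2.74 against 8.92 (-1.67, -1.84 to -1.56). Nadk2, Slc25a33 (a mitochondrial pyrimidine carrier), Wee1 (a mitotic inhibitor kinase), Gm14002 and Gm36388 complete the 8 lowest. Sgcz at 22.7 against 49.96 (-1.14) and Esrrb at 9.33 against 20.3 (-1.11) were also lower.

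The 8 genes highest in Klf4 dEC Nos3 null over Klf4 dEC had low levels. Gp2, a glycoprotein related to uromodulin, stood at 1.79 against 0.627 (1.38, 1.16 to 1.88), and Ccbe1 at 0.839 against 0.212 (1.59, 1.39 to 2.63). Gm45846, Zfp385b, Zfp827, Pla2g7, Zmynd12 and Plch1 make up the rest. Median-ratio rescaling of the columns moved all ratios of this comparison by 0.11 and those of Klf4 dEC Nos3 null over control by 0.12, which turned no named gene round. It gave 30 higher and 76 lower genes over Klf4 dEC, and 18 higher and 47 lower over control.

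Klf4 dEC Nos3 null and the control, alike in depth, differed least in cluster 2. Of 4027 genes, 30 were higher (0.745%) and 27 were lower (0.670%), 1.42% in all, with 1.24% in cluster 4. Rbfox1, an RNA splicing factor gene, stood at 4.98 in Klf4 dEC Nos3 null, against 1.75 in the control (1.45, 1.35 to 1.66), where cluster 4 had 8.33 against 7.14. Gm45846, 9130230L23Rik, Gm47283, Sntg1, Adgrg3, Fli1 and Mettl24 were the other genes among the 8 highest. Sgcz stood at 22.7 against 58.0 (-1.35, -1.40 to -1.31) and Tfcp2l1, a grainyhead-like transcription factor gene of the distal nephron, at 2.17 against 5.06 (-1.19, -1.37 to -1.08); for Tfcp2l1 cluster 4 had 7.48 against 7.79.

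Several genes were highest in the control library alone, among them targets of the glucocorticoid receptor, the nuclear receptor through which corticosteroids act. Fkbp5, a co-chaperone of that receptor, stood at 0.863 in Klf4 dEC Nos3 null, 1.30 in Nos3 null and 1.22 in Klf4 dEC, against 6.51 in the control. Zbtb16, the zinc-finger factor PLZF, stood at 0.728, 1.64 and 2.43, against 6.84 in the control. The control lay above every other library for both genes, in cluster 4 as well, where Fkbp5 stood at 1.92, 2.10 and 4.51, against 8.77, and Zbtb16 at 1.48, 1.91 and 3.32, against 6.10. Outside the segment the median log2 ratio of Fkbp5 over the other 20 clusters was -0.95 for Klf4 dEC Nos3 null, -2.07 for Nos3 null and -0.91 for Klf4 dEC over the control. These 3 comparisons share the control library.

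The list of glucocorticoid targets, which includes Fkbp5 and Zbtb16, was less uniform. Of its 7 genes past the floor in Klf4 dEC Nos3 null over control, 2, Fkbp5 and Zbtb16 themselves, were lower and 0 higher. The median log2 ratio was -0.72, against 0.08 over all genes, of which 0.670% were lower and 0.745% higher. In Klf4 dEC over control the same 2 genes were lower and 0 higher, with a median of -0.15. All genes there had a median of -0.06, with 2.11% lower and 2.19% higher. In Nos3 null over control 3 of 6 were lower (Fkbp5, Zbtb16 and Mt1) and 1, Errfi1, was higher, with a median of -1.27. All genes there had a median of 0.05, with 3.12% lower and 7.52% higher. Tsc22d3, the glucocorticoid-induced leucine zipper, stood at 0.0933, 0.202 and 0.223, against 0.493 in the control, which is just under the floor. Per1, a clock gene with glucocorticoid response, stood at 0.518, 0.390 and 0.559, against 0.631, and Klf9 at 1.61, 3.01 and 2.88, against 2.27, so the control was not the highest for Klf9.

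Beyond that list, Chd9, a chromatin remodeller gene, stood at 9.64 in Klf4 dEC Nos3 null, 6.94 in Nos3 null and 10.0 in Klf4 dEC, against 27.8 in the control. Peli2 stood at 3.51, 5.83 and 2.96, against 9.87, Sh3rf1, a scaffold ubiquitin ligase gene, at 2.11, 5.45 and 3.18, against 7.16, and Spire1, an actin nucleator gene, at 1.26, 1.49 and 1.80, against 3.76. For all of these the control was the highest of the 4 libraries in cluster 2. The hour of tissue collection is not among the labels, and time, handling and genotype cannot be told apart with 1 library each.

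**Figure D4:**
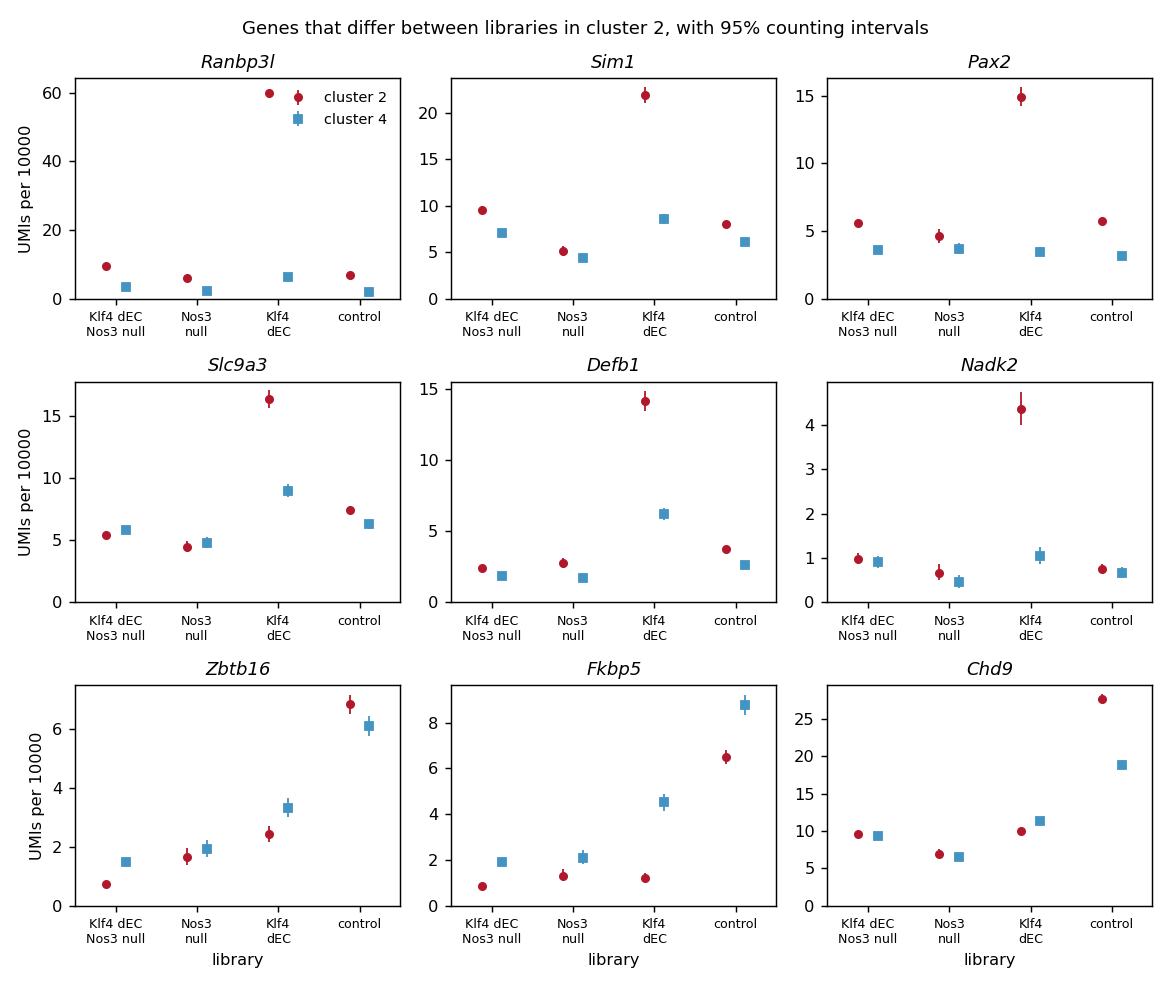
Levels (y axes, UMIs per 10000, from 0) of 9 genes in each library (x axes) for clusters 2 (red circles) and 4 (blue squares), with exact Poisson 95% counting intervals. Ranbp3l, Sim1, Pax2, Slc9a3, Defb1 and Nadk2 are highest in the Klf4 dEC library in cluster 2, and Zbtb16, Fkbp5 and Chd9 are highest in the control in both clusters.

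**Figure D5:**
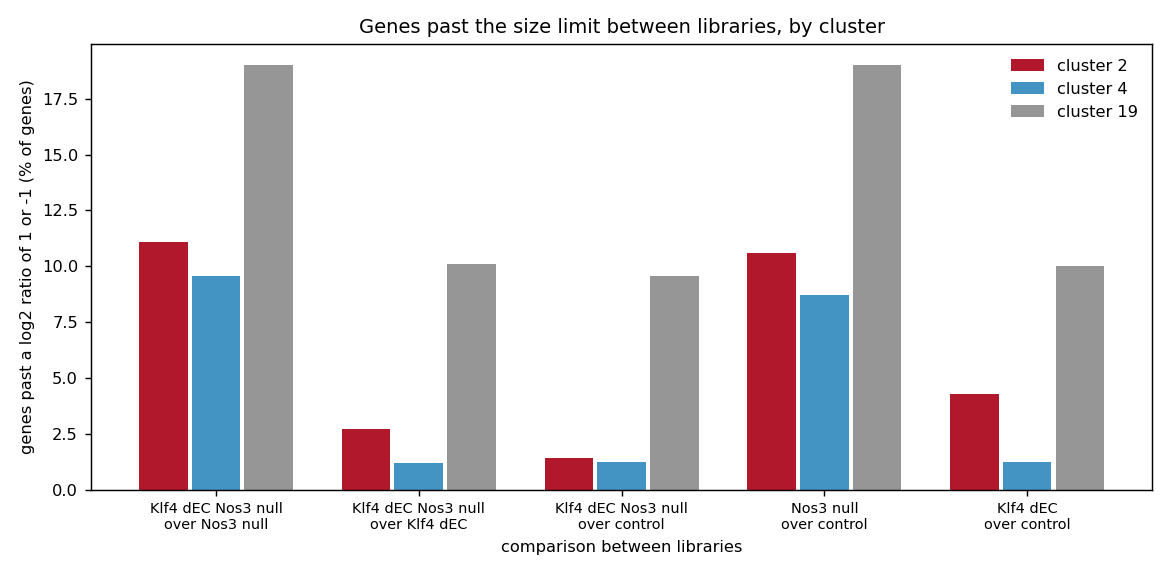
Percent of genes past a log2 ratio of 1 or -1 (y axis, from 0) in each of the 5 comparisons between libraries (x axis) in clusters 2 (red), 4 (blue) and 19 (grey). In cluster 2 the values are 11.1, 2.71, 1.42, 10.6 and 4.30, from left to right, and the comparisons that include the Nos3 null library are the highest in all 3 clusters.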

How the data were processed

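Nuclei from a small piece of kidney cortex were profiled on the 10X Chromium system, per the labels' protocols, and Cell Ranger, Seurat and mm10 are named in the submitters' processing notes, without versions. The deposited signal is a table of 21046 genes in 92 columns, which are 23 clusters in each of 4 libraries, with 0 columns left without a sample; every column sums to 10000, so a value is the authors' mean of UMIs per 10000 over nuclei. The sources used here do not give how clusters, filters and doublets were handled, and barcodes shared between libraries could not be counted from averages.

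The smallest values come from single UMIs: each equals 10000 over the product of the nuclei number and the UMI total of that nucleus. The nuclei number was therefore set to the greatest one dividing 75% or more of the distinct reciprocals of the lowest values, with totals found for at least 60% of nuclei. In clusters 2, 4 and 19 it divided at least 88.9% of them, and its double at most 55.6%. At a minimum of 50%, 1 of the 92 columns, outside these clusters, gave 24 nuclei in place of 12. The procedure was tested on simulated data.

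Ratios are log2 of levels with a pseudocount of 0.1, which understates low genes. Named are the 5 marker genes, the 10 highest and 10 lowest genes against each cluster, the 10 largest multiples of other clusters, the 8 highest and 8 lowest per library comparison, and genes of a list where it is described. Timp3 was named after its values were seen. Some genes that the rule names are not reported here. Members and lists were chosen with earlier results of these data known. Sequences come from RefSeq on GRCm38.p6, and positions from RefSeq on GRCm38. Work used Python 3.11.15, numpy 2.4.6, pandas 2.3.3, scipy 1.17.1 and matplotlib 3.10.9.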

Additional observations from a re-analysis of the deposited data

Results flagged for a closer look

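For 2 of 3731 genes in cluster 2, Klf4 dEC over control and Klf4 dEC Nos3 null over Nos3 null went opposite ways past the limit, and the difference was not tested. Timp3, an inhibitor of matrix metalloproteinases, stood at 4.64 in Klf4 dEC Nos3 null, 12.2 in Nos3 null, 10.0 in Klf4 dEC and 3.51 in the control, so the log2 ratio was 1.48 in Klf4 dEC over control and -1.37 in Klf4 dEC Nos3 null over Nos3 null. Egr1, an immediate early transcription factor, stood at 0.157, 0.811, 0.515 and 0.142 in the same libraries, with log2 ratios of 1.35 and -1.83. In cluster 4 the Timp3 ratios were 0.05 and -1.36 and those of Egr1 were 1.14 and 0.11. The Nos3 null library, which enters both second ratios, was also the shallowest and held more transcripts of other segments; their part in these values was not tested.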

How the results depend on the processing

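No paired analysis was possible because each genotype has 1 library. A pseudocount of 0.5 lowered the counts: to 6 higher and 14 lower genes against cluster 4, 46 and 66 against cluster 19, 46 and 173 in Klf4 dEC Nos3 null over Nos3 null, 7 and 26 over Klf4 dEC, 9 and 11 over control, 164 and 47 in Nos3 null over control, and 30 and 21 in Klf4 dEC over control. A pseudocount of 0.02 gave 89 higher genes in Klf4 dEC Nos3 null over Klf4 dEC and 125 lower in Klf4 dEC over control. A level floor of 1 gave 81 and 187 in Klf4 dEC Nos3 null over Nos3 null, 24 higher over Klf4 dEC, 18 higher over control, 187 and 67 in Nos3 null over control, and 57 and 54 in Klf4 dEC over control. With no floor the counts were 421 and 478, then 104 and 92 over Klf4 dEC, 476 and 286 in Nos3 null over control, and 133 higher in Klf4 dEC over control. Median-ratio rescaling gave 30 higher over Klf4 dEC, and 18 higher and 47 lower in Klf4 dEC Nos3 null over control. Leaving out 1 library at a time gave 12 to 18 higher and 41 to 63 lower genes against cluster 4, and 102 to 123 and 158 to 213 against cluster 19, with the highest counts without Nos3 null. Of clusters 2 and 4 alone, cluster 2 held 52.0% in Klf4 dEC and 59.1% in the control. In all, 66 of 104 such alternatives kept counts within 1.5 times, or shares within their interval. Of 480 values of named genes, 411 moved by less than their counting error, 69 moved further and 0 changed sign; apart from the construction of each setting, the cause was not tested.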
